A study of Mus musculus with 6 samples.

Results

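The genes described here are 46 genes of mitosis and cytokinesis, taken by symbol from a fixed list of gene names and matched to the Entrez gene IDs in the files. They are 46 of the 18743 genes with reads in at least 1 of 6 RNA-seq libraries of cultured mouse oligodendrocyte progenitor cells (OPCs). All 46 were detected in all 6 libraries and all passed the filter on low counts, so they are also 46 of the 12779 genes tested. The lowest rounded count of any of them was 76, for Nuf2 in hemin replicate 1.

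OPCs are the dividing glial precursors from which myelinating oligodendrocytes arise. The cells came from the cortex of newborn wild-type C57BL/6 mice, labelled as postnatal day 1, and were selected with magnetic beads that bind CD140, the PDGFRα receptor. They were grown for 3 days on coated plates and then exposed for 12 h. The 3 hemin libraries are from cells given 50 µM hemin, an oxidised iron-carrying heme, and the 3 vehicle libraries from cells given 0.25% DMSO alone. Strain, genotype, age and isolation were the same in both groups. Whether the replicates of a group were separate cultures is not stated in the labels. The p-values therefore speak only of the spread between these libraries, and that spread may be technical.

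Entry into mitosis is driven by the kinase CDK1 bound to A- and B-type cyclins. Its substrates and partner kinases condense the chromosomes and build the spindle, and the spindle checkpoint holds the cell until every kinetochore is attached. The anaphase-promoting complex (APC/C) with its activator CDC20 then destroys securin and the cyclins, separase cuts cohesin, and centralspindlin and RhoA signalling divide the cell. Many of these genes are transcribed mainly in G2 and mitosis, under the DREAM and B-MYB-MuvB complexes and FOXM1, through promoter elements named CHR (cell cycle genes homology region) and through the box bound by NF-Y. In brain tissue their transcripts mark dividing cells, and OPCs are among the cells that keep dividing.

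Expected counts over annotated genes summed to between 6463460 and 6523639 in the hemin libraries and between 6339966 and 6390691 in the vehicle libraries. Within groups, chi-square over degrees of freedom was 5.44 to 23.5 between libraries, beyond counting noise, so none was treated as a duplicate. The OPC label was checked on 10 markers, of which 7 fell with hemin and none rose. All marker counts given here stand against 15.7% of all genes tested called lower and 16.2% called higher. No marker count was tested against those shares. Pdgfra, the receptor used for the isolation, had 12.6, 31.6 and 26.9 FPKM (fragments per kilobase, scaled for depth) with hemin, against 108, 148 and 105 FPKM with vehicle. The 10 markers summed to 408 to 621 FPKM with hemin and 1225 to 1478 FPKM with vehicle, so OPC transcripts were present in both groups. Markers of differentiating oligodendrocytes summed to 27.4 to 40.2 FPKM with hemin and 35.05 to 59.4 FPKM with vehicle, with 1 of 5 tested lower, and Mog was listed at 0 in every library. Astrocyte markers summed to 417 to 556 FPKM with hemin and 527 to 609 FPKM with vehicle, with 5 of 10 lower and 1 higher. Neuronal markers summed to 117 to 158 FPKM with hemin and to between 199.7 and 235 FPKM with vehicle, with 3 of 10 lower and 1 higher. Microglial markers summed to 19.4 to 20.8 FPKM with hemin and 7.68 to 14.3 FPKM with vehicle, with none of 7 tested lower and 1 higher. Endothelial markers summed to 6.28 to 7.87 FPKM with hemin and 1.72 to 3.10 FPKM with vehicle, with 3 of 6 tested higher. Fibroblast and pericyte markers summed to 10.8 to 25.3 FPKM with hemin and 7.79 to 14.8 FPKM with vehicle, with 1 of 8 tested higher. The part that these other cell types have in the results on the mitosis genes was not tested.

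The mitosis genes were mostly lower with hemin. Summed over the 46 genes, they reached 1006, 1398 and 1530 FPKM in hemin libraries 1 to 3, against 2043, 1861 and 1640 FPKM in vehicle libraries 1 to 3. All 3 hemin sums lay below all 3 vehicle sums. In edgeR's quasi-likelihood test with Benjamini-Hochberg adjustment over all genes tested, 24 of the 46 (52.2%) fell at an adjusted p below 0.05, where 15.7% of all genes tested were called lower. A single member, Bub3, rose, where 16.2% of all genes tested were called higher, and 21 members were not called. With libraries scaled by their totals alone, 24 members were called lower and none higher, while higher genes made up 39.9% of all calls in place of 50.8%. The fold change was negative for 39 of the 46, and its median was -0.56 on the log2 scale, against 0.00 over all genes tested. In bulk RNA of this kind, fewer cells in mitosis and less of each transcript per cell cannot be told apart.

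The hemin libraries lay wholly below the vehicle libraries in FPKM for 26 members, where 27.5% of all genes tested did so. They lay wholly above for 1 member, Bub3, where 21.5% of all genes tested did so, and the groups overlapped for 19. Of the 24 called lower, 14 kept their call under each of 15 other settings tried, and 10 lost it under at least 1. Leaving out a library also changed the calls over all genes. The count of members called lower was 14 without vehicle replicate 1, where 8.68% of all genes were called lower, and 16 without vehicle replicate 2, where 8.46% were. It was 18 without hemin replicate 2 (10.4% of all genes), 24 without hemin replicate 3 (12.8%) and 23 without vehicle replicate 3 (11.3%). Without hemin replicate 1, 22 members were lower and 3 were higher, where 17.8% and 17.0% of the 13016 genes then tested were called in those directions.

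**Figure D1:**
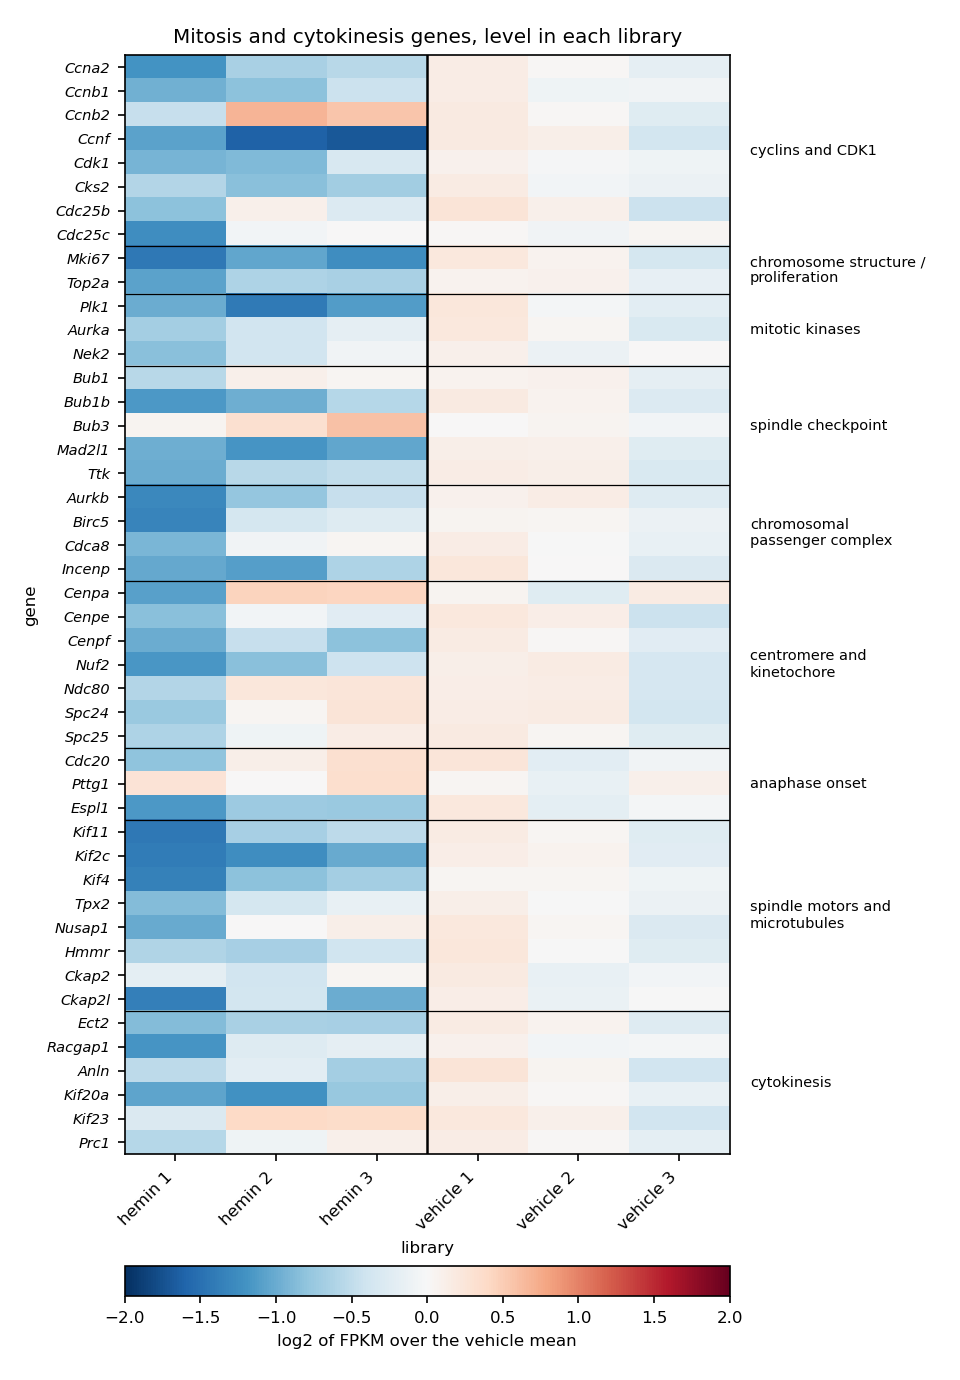
Level of each of the 46 genes (rows, grouped by role) in each library (columns), as log2 of its FPKM over the mean of the vehicle libraries; blue is lower and red is higher. The hemin columns are mostly blue, hemin replicate 1 most uniformly so, and Ccnb2, Cenpa and Bub3 stand out in red in hemin replicates 2 and 3.

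The heat map shows a pattern by library as well as by group. The column of hemin replicate 1 is blue in nearly every row, while hemin replicates 2 and 3 are pale or red in a part of the rows. The plot of fold changes gives the same genes as estimates from the test with all 6 libraries and without that library.

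**Figure D2:**
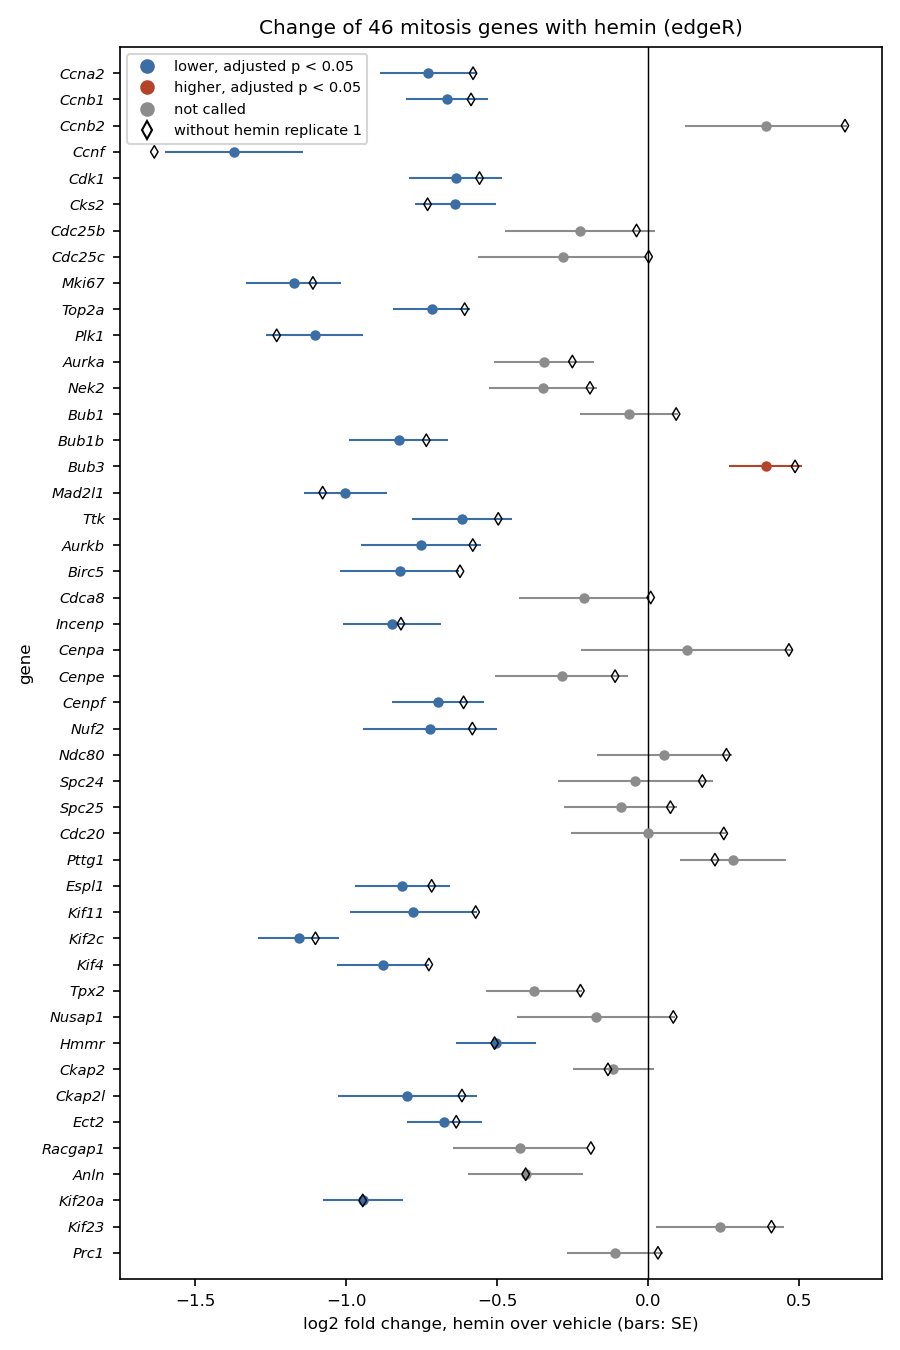
Log2 fold change, hemin over vehicle, of each of the 46 genes from edgeR (circles, with bars of 1 standard error; blue called lower, red called higher, grey not called) and the estimate without hemin replicate 1 (open diamonds). The circles run from -1.37 for Ccnf to 0.39 for Ccnb2 and Bub3, and most diamonds lie to the right of their circles.

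Promoter sequence is shown because the G2 and mitosis genes are known for shared promoter elements, and because the members split into called and uncalled genes. RefSeq windows of assembly GRCm38.p6, each 250 bases before to 50 bases after a gene start, were available for 39 of the 46 genes, in 42 windows. Bub3, Ect2 and Prc1 each have a pair of overlapping windows, so some matches are counted more than once. The CHR letters TTTGAA, read on both strands, stood in 31 of the 42 windows (73.8%), against 17.9% of all 32851 windows in the table. Counted by gene, TTTGAA stood in 28 of 39 members, against 5466 of all 27025 genes with a window. The NF-Y box letters CCAAT, read on both strands, stood in 34 of the 42 (81.0%), against 37.4% of all windows. Both stood in 28 of the 42 (66.7%), against 6.95% of all windows, and in 1 member window a match of each overlapped. The related letters TTCGAA stood in 4 of the 42 (9.52%), against 1.56% of all windows. In the bases before the start alone, 16 of the 42 held TTTGAA (38.1%), against 16.0% of all windows. Within 50 bases of the start on either side, a range added after the data were seen, 27 of the 42 held it (64.3%), against 4.94% of all windows. Among windows of genes called lower, 16 of 21 held TTTGAA (76.2%), and among windows of the other members 15 of 21 did (71.4%). In the bases before the start alone, TTTGAA stood in 10 of 21 windows of genes called lower (47.6%) and 6 of 21 of the others (28.6%), and this difference was not tested. CCAAT stood in 17 of 21 whole windows of each kind. A match is a description of letters in a window, not a site that a factor was shown to bind.

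The 6 stretches printed here are examples picked by hand among those holding no annotated exon, and they do not stand for all members. Each is the 120 bases just before the gene start, 5′ to 3′ on the gene's strand, from RefSeq on GRCm38.p6. The first 4 belong to genes called lower and the last pair to genes not called. Capitals mark TTTGAA or TTCGAA and their reverse complements, and CCAAT or its reverse complement ATTGG. Mki67 lies at chr7:135716380-135716499 on the minus strand, Top2a at chr11:99024190-99024309 on the minus strand and Kif11 at chr19:37376262-37376381 on the plus strand. Ckap2l lies at chr2:129297213-129297332 on the minus strand, Ccnb2 at chr9:70421555-70421674 on the minus strand and Spc25 at chr2:69206214-69206333 on the minus strand.
Mki67: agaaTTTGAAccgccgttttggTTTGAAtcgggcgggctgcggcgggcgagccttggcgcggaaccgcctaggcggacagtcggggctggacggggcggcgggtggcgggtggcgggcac
Top2a: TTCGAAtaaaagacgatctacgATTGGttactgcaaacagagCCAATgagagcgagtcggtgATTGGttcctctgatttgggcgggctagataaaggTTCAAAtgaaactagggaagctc
Kif11: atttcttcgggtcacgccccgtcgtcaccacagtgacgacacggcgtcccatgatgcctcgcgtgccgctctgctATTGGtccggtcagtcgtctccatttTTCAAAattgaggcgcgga
Ckap2l: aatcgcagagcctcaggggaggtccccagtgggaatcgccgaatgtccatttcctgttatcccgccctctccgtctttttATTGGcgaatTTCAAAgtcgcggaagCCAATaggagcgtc
Ccnb2: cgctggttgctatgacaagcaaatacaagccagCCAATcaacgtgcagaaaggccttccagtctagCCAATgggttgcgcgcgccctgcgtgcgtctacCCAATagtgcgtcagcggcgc
Spc25: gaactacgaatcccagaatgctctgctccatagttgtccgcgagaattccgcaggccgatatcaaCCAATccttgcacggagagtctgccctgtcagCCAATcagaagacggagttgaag
Mki67 has a pair of TTTGAA matches in this stretch and no CCAAT, which in its window lies farther upstream. Top2a has in its printed stretch 3 CCAAT matches, and a TTTGAA match at position -23 counted from the gene start. Ccnb2, which was not called, has CCAAT matches at positions -87, -54 and -21. Its TTTGAA matches, at positions -167 and 5, lie outside the printed stretch. Spc25, also not called, has CCAAT at -55 and -23 and TTTGAA at position 25. Genes of both kinds thus carry both elements in their windows. Genes of both kinds also lack them: Birc5, Mad2l1 and Nuf2, called lower, and Nusap1 and Pttg1, not called, had no match in their windows. Ckap2, not called, had TTTGAA upstream, at position -101.

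**Figure D3:**
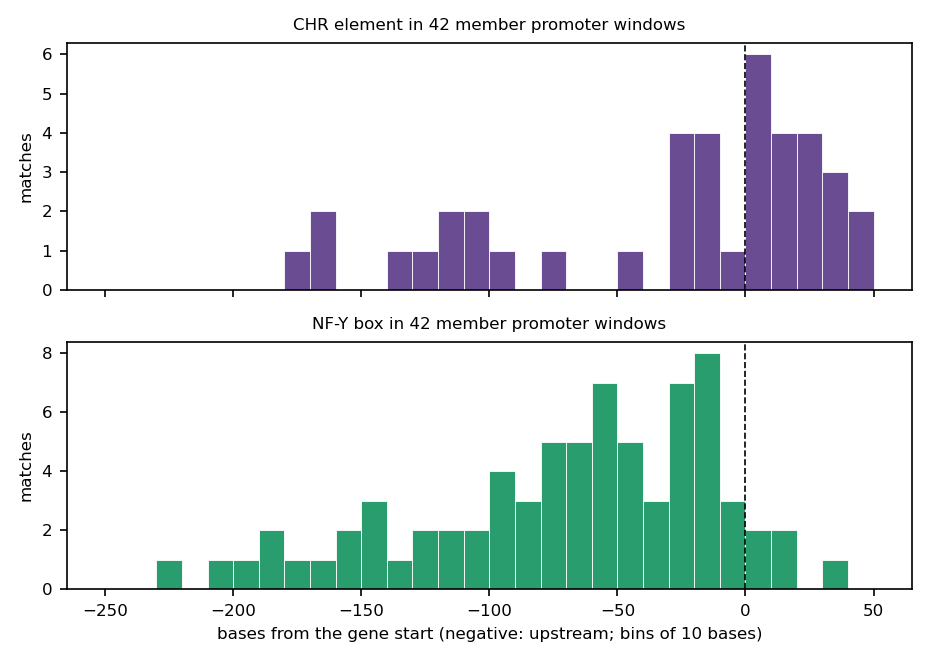
Positions of matches to the CHR element (upper panel) and to the NF-Y box (lower panel) in the 42 promoter windows of the members, in bins of 10 bases from the gene start (dashed line; negative is upstream). CHR matches gather within 50 bases of the start, and NF-Y matches lie mostly within the 100 bases before it.

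The histogram of positions shows NF-Y matches mostly upstream of the start and CHR matches on both sides of it. Members called and not called are drawn together, and their shares are those given above.

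The counts by role that follow stand against 15.7% of all genes tested called lower and 16.2% called higher, and no count by role was tested against those shares. Of the 8 genes of the cyclin and CDK1 group, 5 fell with hemin and none rose. Wherever 3 values are given for a group, they are those of replicates 1, 2 and 3. Ccna2 (Entrez ID 12428), the A-type cyclin of S phase and mitotic entry, had the highest mean level of the 46 genes in both groups. It had 50.6, 74.05 and 79.0 FPKM with hemin, against 128, 118 and 102 FPKM with vehicle. The groups did not overlap, and it fell 1.66-fold (log2 fold change -0.73 ± 0.16, SE, edgeR adjusted p = 0.0120), with an adjusted p of 0.0568 without vehicle replicate 1. Ccnb1, the main mitotic B-type cyclin, had 38.8, 42.8 and 56.0 FPKM with hemin, against 83.2, 71.2 and 71.5 FPKM with vehicle. Its groups did not overlap either, and it fell 1.59-fold (log2 fold change -0.67 ± 0.14, edgeR adjusted p = 0.00918). Cdk1, the kinase that both cyclins activate, had 18.8, 19.3 and 28.35 FPKM with hemin, against 37.9, 35.1 and 33.7 FPKM with vehicle, and fell 1.56-fold (edgeR adjusted p = 0.0180). Cdk1 was no longer called without hemin replicate 2 (adjusted p = 0.0635), vehicle replicate 1 (0.0726) or vehicle replicate 2 (0.0598).

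Ccnf (Entrez ID 12449) encodes cyclin F, which binds no CDK and instead brings substrates to a ubiquitin ligase, and it showed the greatest fall of the 46. It had 10.6, 7.22 and 6.84 FPKM with hemin, against 25.2, 24.2 and 17.3 FPKM with vehicle, a 2.59-fold fall (log2 fold change -1.37 ± 0.23, edgeR adjusted p = 0.004435). Unlike most members it was highest, not lowest, in hemin replicate 1 among the hemin libraries. Cks2, a small CDK-binding subunit, had 57.65, 48.4 and 53.1 FPKM with hemin, against 97.0, 83.1 and 79.35 FPKM with vehicle, and fell 1.56-fold (edgeR adjusted p = 0.0105). Both genes had separate groups, and their lowest hemin values were not in hemin replicate 1.

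Ccnb2 (Entrez ID 12442), the second B-type cyclin, had 20.0, 44.1 and 40.5 FPKM with hemin, against 31.1, 28.0 and 23.2 FPKM with vehicle. Hemin replicate 1 lay below all vehicle libraries, while hemin replicates 2 and 3 lay above all of them. With all libraries Ccnb2 was not called (log2 fold change 0.39 ± 0.27, edgeR adjusted p = 0.305). Without hemin replicate 1 it was higher with hemin by 1.57-fold (log2 fold change 0.65 ± 0.14, edgeR adjusted p = 0.0144). Cdc25b and Cdc25c, phosphatases that remove the inhibitory phosphates from CDK1, were not called. Cdc25b had 8.45, 16.0 and 12.3 FPKM with hemin, against 17.7, 15.9 and 10.99 FPKM with vehicle (edgeR adjusted p = 0.527). Cdc25c had 7.97, 17.99 and 19.0 FPKM with hemin, against 19.2, 17.9 and 19.3 FPKM with vehicle, and hemin replicate 1 stood alone below all other libraries.

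**Figure D4:**
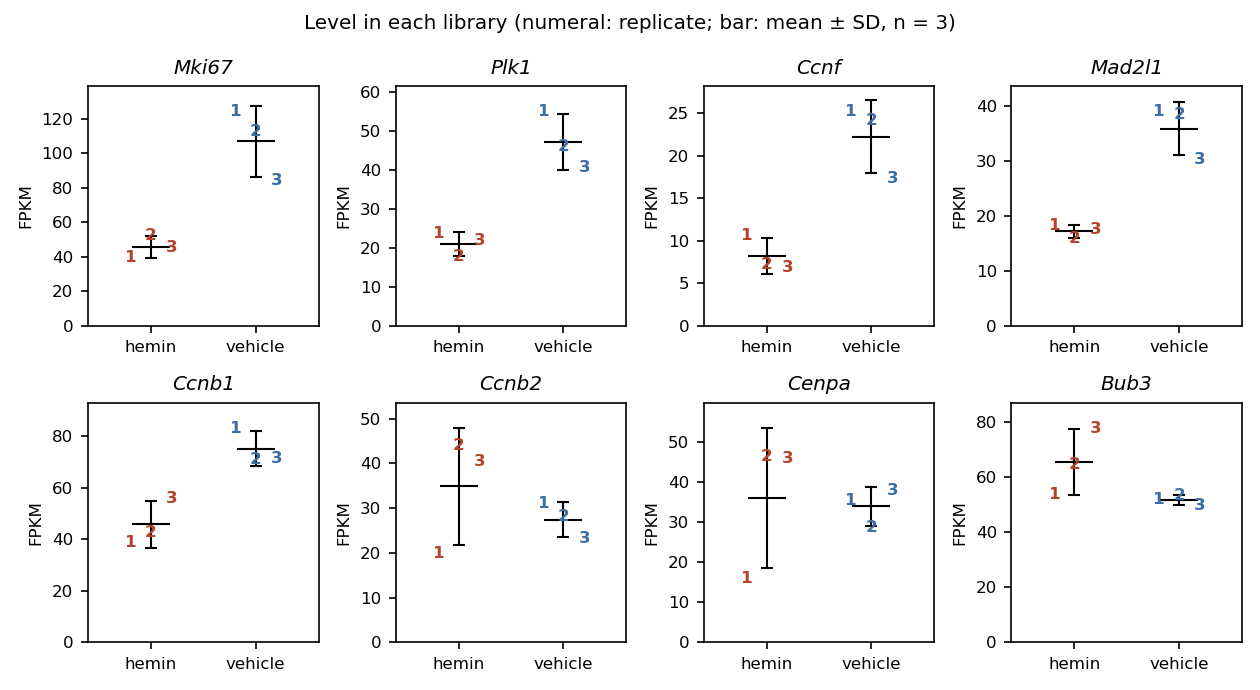
FPKM of 8 members in each library (each numeral is the replicate number at its value; bars are mean ± SD, n = 3 per group), hemin left and vehicle right, on axes that start at 0. Mki67, Plk1, Ccnf, Mad2l1 and Ccnb1 show separate groups, Ccnb2 and Cenpa have hemin replicate 1 below and replicates 2 and 3 above the vehicle libraries, and Bub3 is slightly higher with hemin.

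The panels by library set members with separate groups beside those in which the hemin libraries divide. In Plk1 and Mad2l1 the gap between groups is wider than the spread within either. In Ccnb2 and Cenpa the SD of the hemin group is wider than that of the vehicle group.

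Both genes of chromosome structure and proliferation fell. Mki67 (Entrez ID 17345) encodes Ki-67, a protein that coats mitotic chromosomes and is the common marker of cycling cells. It had 39.95, 52.45 and 45.3 FPKM with hemin, against 124, 113 and 84.35 FPKM with vehicle. The means were 45.9 ± 6.27 FPKM with hemin and 107 ± 20.6 FPKM with vehicle (SD, n = 3 each), a 2.26-fold fall (log2 fold change -1.17 ± 0.16, edgeR adjusted p = 0.00208). Top2a, the topoisomerase that untangles sister DNA molecules, had 30.7, 42.3 and 41.3 FPKM with hemin, against 67.9, 68.6 and 57.6 FPKM with vehicle. It fell 1.64-fold (log2 fold change -0.72 ± 0.13, edgeR adjusted p = 0.005745). For both genes all hemin libraries lay below all vehicle libraries, and hemin replicate 1 was the lowest.

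Of 3 mitotic kinases outside the larger complexes, 1 fell. Plk1 (Entrez ID 18817), the polo-like kinase of mitotic entry and centrosome maturation, had 23.7, 17.7 and 21.8 FPKM with hemin, against 54.9, 45.99 and 40.5 FPKM with vehicle. The groups were far apart, and it fell 2.15-fold (log2 fold change -1.10 ± 0.16, edgeR adjusted p = 0.00279), again with hemin replicate 1 as the highest hemin library. Aurka, the Aurora kinase of centrosomes and spindle assembly, had 18.03, 22.02 and 25.4 FPKM with hemin, against 33.5, 29.55 and 23.3 FPKM with vehicle (log2 fold change -0.35 ± 0.17, edgeR adjusted p = 0.152). Nek2, a kinase of centrosome separation, had 7.36, 10.1 and 12.6 FPKM with hemin, against 14.1, 12.1 and 13.3 FPKM with vehicle (log2 fold change -0.35 ± 0.18, edgeR adjusted p = 0.178). For these last genes the groups overlapped and no call was made.

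The 5 spindle checkpoint genes divided, with 3 lower and 1 higher. Mad2l1 (Entrez ID 56150) encodes MAD2, which binds CDC20 and blocks the APC/C at unattached kinetochores. It had 18.3, 15.9 and 17.5 FPKM with hemin, against 39.0, 38.6 and 30.3 FPKM with vehicle, a 2.00-fold fall (log2 fold change -1.0030 ± 0.14, edgeR adjusted p = 0.002335). Bub1b encodes BUBR1, MAD2's partner in the inhibitory complex, and had 11.8, 13.4 and 17.6 FPKM with hemin, against 29.55, 27.4 and 21.6 FPKM with vehicle. It fell 1.77-fold (edgeR adjusted p = 0.00880), and for both genes the groups were separate. Ttk, the kinase MPS1 that starts checkpoint signalling, had 10.5, 14.3 and 14.9 FPKM with hemin, against 23.2, 22.7 and 17.1 FPKM with vehicle, and fell 1.53-fold (edgeR adjusted p = 0.0269). Ttk was no longer called without hemin replicate 2 (adjusted p = 0.0557), vehicle replicate 1 (0.109) or vehicle replicate 2 (0.103).

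Bub3 (Entrez ID 12237), the protein that docks BUB1 and BUBR1 at kinetochores, was the 1 member that rose. It had 53.9, 64.8 and 77.9 FPKM with hemin, against 52.1, 53.5 and 49.7 FPKM with vehicle, a 1.31-fold rise (log2 fold change 0.39 ± 0.12, edgeR adjusted p = 0.0447). Hemin replicate 1 lay just above the highest vehicle library. The call was lost in 11 of 15 other settings. Among them were the fits without hemin replicate 2 (adjusted p = 0.102), hemin replicate 3 (0.0967), vehicle replicate 1 (0.121), vehicle replicate 2 (0.109) and vehicle replicate 3 (0.113). Without hemin replicate 1 the adjusted p was 0.00902. Bub1, the checkpoint kinase, had 14.2, 22.3 and 21.45 FPKM with hemin, against 21.9, 22.2 and 18.45 FPKM with vehicle, and was not called (edgeR adjusted p = 0.798).

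The chromosomal passenger complex, which corrects faulty spindle attachments and later acts at the midzone, had 3 of 4 subunits lower and none higher. Incenp, its scaffold, had 17.1, 16.3 and 22.6 FPKM with hemin, against 40.75, 35.2 and 28.7 FPKM with vehicle, and fell 1.80-fold (log2 fold change -0.85 ± 0.16, edgeR adjusted p = 0.00752). Aurkb, its kinase, had 14.6, 20.9 and 26.1 FPKM with hemin, against 37.8, 39.6 and 29.95 FPKM with vehicle, and fell 1.69-fold (edgeR adjusted p = 0.0253). Aurkb lost its call without hemin replicate 2 (adjusted p = 0.0700), vehicle replicate 1 (0.0877) or vehicle replicate 2 (0.0947). Birc5 encodes survivin, the subunit that reads the centromeric histone mark, and had 28.0, 54.8 and 58.7 FPKM with hemin, against 72.9, 72.3 and 64.7 FPKM with vehicle. On counts summed over its transcripts it fell 1.77-fold (log2 fold change -0.82 ± 0.20, edgeR adjusted p = 0.0174). The adjusted p was 0.0680 without vehicle replicate 1 and 0.0630 without vehicle replicate 2. On FPKM the fall of Birc5 was smaller. It was not called with limma on log2(FPKM + 1) (log2 fold change -0.63, adjusted p = 0.0917) or log2(FPKM + 0.1) (-0.64, adjusted p = 0.0990). Cdca8, which encodes borealin, had 34.7, 62.25 and 66.8 FPKM with hemin, against 72.1, 65.2 and 58.6 FPKM with vehicle, and was not called (edgeR adjusted p = 0.489). Hemin replicate 1 of Cdca8 lay below the vehicle range and the other hemin libraries within it.

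Birc5 was also split over a pair of RefSeq transcripts, and the split is an estimate by the authors' software. The 3416-base transcript had 74, 35 and 53 expected counts with hemin, against 300, 272 and 233 with vehicle. The 977-base transcript had 200, 412 and 435 expected counts with hemin, against 483, 489 and 445 with vehicle. The long transcript thus took 15.2% ± 10.3 of the gene's counts with hemin and 36.1% ± 1.99 with vehicle (SD, n = 3 each), and the groups did not overlap. This gene was singled out after its values were seen, and the two-sided exact permutation p of 0.1 is the smallest that 3 against 3 libraries allow. Of the 15 members with more than 1 transcript, 6 had a transcript whose share did not overlap between groups (Birc5, Ect2, Kif20a, Kif2c, Prc1 and Tpx2), where 25.3% of the 4009 such genes tested did so.

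Of 7 genes of the centromere and kinetochore, 2 fell and none rose, a count near the 15.7% of all genes. Cenpf, a large protein of the outer kinetochore, had 11.5, 16.6 and 12.97 FPKM with hemin, against 25.8, 23.4 and 19.7 FPKM with vehicle, and fell 1.62-fold (log2 fold change -0.70 ± 0.15, edgeR adjusted p = 0.0123). Its adjusted p was 0.0572 without vehicle replicate 1. Nuf2, Ndc80, Spc24 and Spc25 form the NDC80 complex that holds microtubule ends. Nuf2 had 3.58, 4.49 and 6.01 FPKM with hemin, against 8.70, 8.99 and 6.34 FPKM with vehicle, and fell 1.65-fold (log2 fold change -0.72 ± 0.22, edgeR adjusted p = 0.0428). Its groups were separate by a small margin, and the call was lost without hemin replicate 1 (adjusted p = 0.0839), hemin replicate 2 (0.115), vehicle replicate 1 (0.1365) or vehicle replicate 2 (0.150). It was also lost with limma on quantile-normalized values (adjusted p = 0.0526) and with a filter at a mean of 1 FPKM (0.0523). The log2 fold changes of its partners were 0.05 ± 0.23 for Ndc80, -0.04 ± 0.26 for Spc24 and -0.09 ± 0.19 for Spc25, and none was called. The difference between Nuf2 and its partners was not tested.

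Ndc80 had 16.2, 28.5 and 29.0 FPKM with hemin, against 26.7, 27.2 and 19.4 FPKM with vehicle. Spc24 had 10.6, 18.2 and 21.3 FPKM with hemin, against 19.6, 19.9 and 13.9 FPKM with vehicle. Spc25 had 40.15, 58.0 and 68.0 FPKM with hemin, against 69.2, 63.1 and 51.5 FPKM with vehicle. In each of the 3, hemin replicate 1 was below all vehicle libraries and the other hemin libraries lay within or above the vehicle range.

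Cenpa (Entrez ID 12615), the histone H3 variant that marks centromeres, had 15.9, 46.3 and 45.7 FPKM with hemin, against 35.3, 28.6 and 37.9 FPKM with vehicle. As in Ccnb2, hemin replicate 1 lay below all vehicle libraries and hemin replicates 2 and 3 above all of them. Cenpa was not called with all libraries (log2 fold change 0.13 ± 0.35, edgeR adjusted p = 0.813), and without hemin replicate 1 it was higher with hemin by 1.38-fold (log2 fold change 0.47 ± 0.14, edgeR adjusted p = 0.0415). Cenpe, the kinesin that carries chromosomes to the spindle equator, had 11.02, 19.1 and 16.9 FPKM with hemin, against 22.8, 21.7 and 14.7 FPKM with vehicle, and was not called (edgeR adjusted p = 0.357).

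At anaphase onset 1 of 3 genes fell. Espl1 encodes separase, the protease that cuts cohesin, and had the lowest mean level of the 46 genes in both groups. It had 2.73, 3.64 and 3.60 FPKM with hemin, against 6.98, 5.30 and 5.85 FPKM with vehicle, with separate groups and a 1.76-fold fall (log2 fold change -0.81 ± 0.16, edgeR adjusted p = 0.00782). Pttg1, which encodes securin, the inhibitor of separase, had 19.45, 16.1 and 20.4 FPKM with hemin, against 16.5, 14.6 and 17.2 FPKM with vehicle, and was not called (log2 fold change 0.28 ± 0.18, edgeR adjusted p = 0.264). Cdc20, the APC/C activator, had 29.6, 56.0 and 64.8 FPKM with hemin, against 60.8, 44.8 and 49.25 FPKM with vehicle. Its log2 fold change was 0.00 ± 0.26 (edgeR adjusted p = 0.999), with hemin replicate 1 below and the other hemin libraries within or just above the vehicle range.

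The 8 spindle motors and microtubule-binding genes had 5 lower and none higher. Kif2c (Entrez ID 73804), the kinesin MCAK that shortens microtubules, had 10.2, 11.3 and 13.3 FPKM with hemin, against 29.3, 28.0 and 22.95 FPKM with vehicle. Its groups were well apart, and it fell 2.23-fold (log2 fold change -1.16 ± 0.13, edgeR adjusted p = 0.00123), the smallest adjusted p of the 46. Kif4, a kinesin of chromosome arms and the midzone, had 9.48, 13.75 and 15.2 FPKM with hemin, against 25.1, 24.97 and 22.8 FPKM with vehicle, and fell 1.84-fold (edgeR adjusted p = 0.00540). Kif11, the motor EG5 that pushes spindle poles apart, had 23.95, 40.5 and 44.9 FPKM with hemin, against 72.2, 66.45 and 54.6 FPKM with vehicle, and fell 1.72-fold (edgeR adjusted p = 0.0272). Kif11 lost its call without hemin replicate 2 (adjusted p = 0.0547), vehicle replicate 1 (0.102) or vehicle replicate 2 (0.0865).

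Hmmr, a microtubule-binding protein of spindle poles, had 20.8, 20.0 and 24.0 FPKM with hemin, against 36.95, 31.5 and 26.85 FPKM with vehicle, and fell 1.42-fold (edgeR adjusted p = 0.0240). The call was lost without hemin replicate 2 (adjusted p = 0.08335), vehicle replicate 1 (0.0901) or vehicle replicate 2 (0.0731). Ckap2l, a spindle and midbody protein, had 9.48, 19.0 and 12.25 FPKM with hemin, against 26.7, 22.3 and 24.25 FPKM with vehicle, and fell 1.74-fold (edgeR adjusted p = 0.0347). Ckap2l was no longer called without hemin replicate 1 (adjusted p = 0.0559), hemin replicate 3 (0.0934), vehicle replicate 1 (0.115), vehicle replicate 2 (0.0727) or vehicle replicate 3 (0.0886).

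Tpx2, the activator of Aurora A on spindle microtubules, had 31.9, 45.4 and 52.1 FPKM with hemin, against 62.9, 57.55 and 53.3 FPKM with vehicle. Its groups did not overlap, yet it was not called (log2 fold change -0.38 ± 0.16, edgeR adjusted p = 0.107). Tpx2 was called lower without hemin replicate 3 (adjusted p = 0.0499) and with limma on quantile-normalized values (0.0450). Nusap1, which bundles spindle microtubules near chromosomes, had 20.7, 41.75 and 45.15 FPKM with hemin, against 48.1, 42.8 and 34.3 FPKM with vehicle (edgeR adjusted p = 0.648). Ckap2, which stabilises spindle microtubules, had 51.5, 45.02 and 60.75 FPKM with hemin, against 66.7, 53.1 and 56.8 FPKM with vehicle (edgeR adjusted p = 0.546). Neither of these last genes was called, and their groups overlapped.

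Cytokinesis genes gave 2 falls among 6 and no rise. Kif20a (Entrez ID 19348), the kinesin that carries the passenger complex to the midzone, had 13.65, 12.3 and 16.8 FPKM with hemin, against 30.7, 28.9 and 25.7 FPKM with vehicle. It fell 1.93-fold (log2 fold change -0.95 ± 0.13, edgeR adjusted p = 0.00240). Ect2, the exchange factor that activates RhoA at the equator, had 14.4, 16.7 and 16.5 FPKM with hemin, against 29.3, 27.5 and 21.9 FPKM with vehicle. It fell 1.597-fold (log2 fold change -0.68 ± 0.12, edgeR adjusted p = 0.00636), and both genes had separate groups.

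Kif23 and Racgap1 form centralspindlin, and Prc1 bundles the midzone microtubules on which it gathers. Racgap1 had 40.1, 76.03 and 79.95 FPKM with hemin, against 96.4, 87.3 and 87.8 FPKM with vehicle. Its groups were separate, but it was not called (log2 fold change -0.43 ± 0.22, edgeR adjusted p = 0.1815). Kif23 had 10.2, 16.5 and 16.0 FPKM with hemin, against 14.5, 13.3 and 9.60 FPKM with vehicle (log2 fold change 0.24 ± 0.21, edgeR adjusted p = 0.430). Prc1 had 44.8, 62.5 and 71.1 FPKM with hemin, against 73.45, 67.45 and 57.7 FPKM with vehicle (log2 fold change -0.11 ± 0.16, edgeR adjusted p = 0.630). Anln, the scaffold of the contractile ring, had 8.63, 10.6 and 7.67 FPKM with hemin, against 14.7, 12.9 and 9.48 FPKM with vehicle (edgeR adjusted p = 0.144). For Kif23, Prc1 and Anln the groups overlapped and no call was made.

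Hemin replicate 1 had less of most mitosis genes than the other hemin libraries. On CPM (counts scaled by library size and edgeR's TMM factors) it was the lowest hemin library for 35 of the 46 members, where it was lowest for 36.3% of all genes tested. Hemin replicate 2 was lowest for 9 members, where 28.0% of all genes were lowest there. Hemin replicate 3 was lowest for 2 members, where 35.7% of all genes were. The level of hemin replicate 1 was at the median 71.3% of the mean of hemin replicates 2 and 3 over the members, and 101.7% over all genes tested. It was under 60% for 10 members (21.7%), where 6.88% of all genes tested were under 60%. These 10 included Cenpa at 36.7%, Cdc25c at 45.5%, Ccnb2 at 49.8%, Nusap1 at 50.5% and Cdc20 at 51.75%. It was 60 to 80% for 18 members, 80 to 100% for 11 and at least 100% for 7. The 7 were Ccnf at 159%, Plk1 at 127%, Cks2 at 119%, Mad2l1 at 116%, Pttg1, Ckap2 and Hmmr.

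The shortfall in that library was uneven between members that were called and members that were not. Its median level was 82.8% of the mean of the other hemin libraries for the 24 members called lower, and 64.7% for the 21 not called. Of the 10 members under 60%, 9 were not called and 1, Kif11, was called lower. A member in which the hemin libraries differ has a wider error in the test, so these shares are not independent of the calls. Hemin replicate 1 lay below every vehicle library in FPKM for 43 of the 46 members, where 45.5% of all genes tested did so. Hemin replicate 2 did so for 29 members, where the share of all genes was 40.7%, and hemin replicate 3 for 27, where it was 39.4%. For 3 members, Ccnb2, Cenpa and Ndc80, hemin replicate 1 lay below and the other hemin libraries above every vehicle library, where 3.52% of all genes did so. Without hemin replicate 1, the 22 members called lower were all among the 24, and Nuf2 and Ckap2l were no longer called. Bub3 was still called higher, joined by Ccnb2 and Cenpa, and the median log2 fold change of the members was -0.50. Hemin replicate 1 was the lowest hemin library for Bub3, Ccnb2 and Cenpa, so leaving it out raises their hemin means by construction. No other setting called Ccnb2 or Cenpa.

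**Figure D5:**
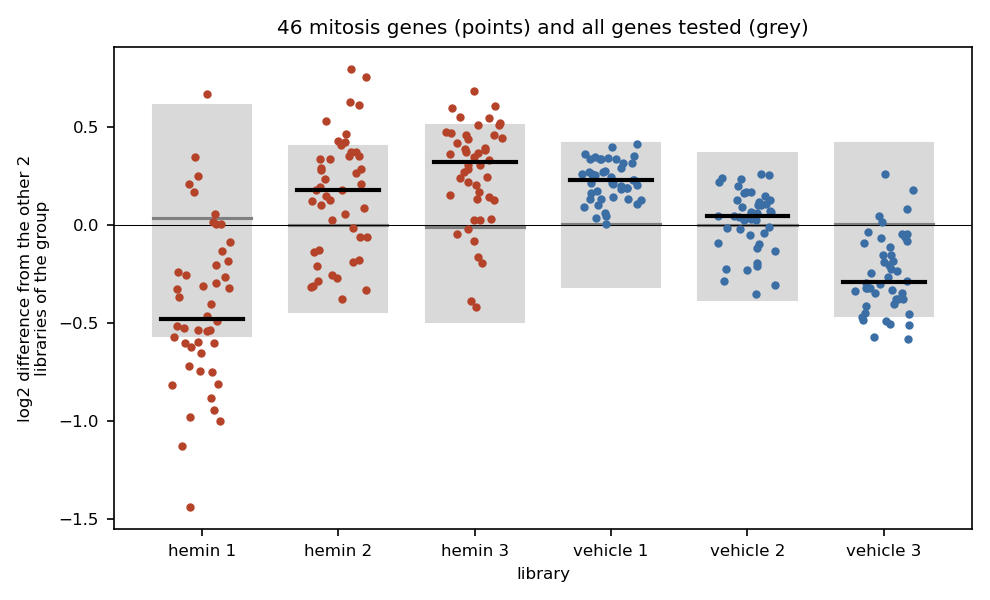
Log2 difference of each of the 46 genes in each library from the mean of the other libraries of its group (points, TMM-scaled CPM; black lines are medians of the members), with the 10% to 90% range of all genes tested as grey bars and their medians as grey lines. The median of the members is -0.48 in hemin replicate 1 and -0.29 in vehicle replicate 3, and above 0 in the other 4 libraries.

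The plot of deviations by library shows that the vehicle libraries differed too, over a smaller range. The median deviation of the members was -0.48, 0.18 and 0.32 in hemin replicates 1 to 3 and 0.23, 0.05 and -0.29 in vehicle replicates 1 to 3. Vehicle replicate 3 was the lowest vehicle library for 36 of the 46 members, where 37.2% of all genes were lowest there. Vehicle replicate 2 was lowest for 10, where 32.8% of all genes were, and vehicle replicate 1 for none, where 30.0% were. In hemin replicate 1 some other genes stood apart from the other hemin libraries, and they were picked after their values were seen. Cdkn1a, the CDK inhibitor p21, had 465, 272 and 348 FPKM with hemin, against 83.9, 57.2 and 79.8 FPKM with vehicle. Sox10, a defining factor of the oligodendrocyte lineage, had 3.43, 18.3 and 17.3 FPKM with hemin, against 64.2, 66.9 and 53.3 FPKM with vehicle. Hmox1, the heme oxygenase, had 3045, 2298 and 2456 FPKM with hemin, against 19.8, 15.8 and 28.7 FPKM with vehicle. Cdkn1a and Hmox1 were highest and Sox10 lowest in hemin replicate 1, but some genes of like kind went the other way. Olig2, another factor of that lineage, had 94.8, 60.7 and 42.3 FPKM with hemin, against 275, 293 and 264 FPKM with vehicle. Gadd45b, a stress-induced gene, had 12.0, 21.7 and 25.4 FPKM with hemin. Its relatives Gadd45a (34.3, 23.5 and 25.2 FPKM) and Gadd45g (51.4, 45.7 and 50.7 FPKM) were instead highest in hemin replicate 1. Of the 10 OPC markers, 7 were lower in hemin replicate 1 than the mean of the other hemin libraries, as were 5956 of the 12779 genes tested. Hemin replicate 3 was likewise lower for 7 of the 10 markers, hemin replicate 2 for 1, and vehicle replicate 3 for all 10 within its group. The part of any of them in the levels of the mitosis genes was not tested.

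Other genes of cell division were counted from 6 textbook lists in the same fit, again against 15.7% of all genes called lower and 16.2% called higher. Of 59 tested genes of other mitotic functions, 25 were lower and 2 higher, with a median log2 fold change of -0.48. Oip5, a factor that helps load CENP-A, fell 2.90-fold (edgeR adjusted p = 0.000902), and it overlaps the member Nusap1 on the other strand. Ska2, of the SKA complex on kinetochore microtubules, had 17.2, 15.9 and 18.75 FPKM with hemin, against 38.6, 40.65 and 36 FPKM with vehicle, and fell 2.14-fold (edgeR adjusted p = 0.000949). Haspin, the kinase that makes the centromeric histone mark read by survivin, fell 3.13-fold (edgeR adjusted p = 0.00155). Zwint, a kinetochore linker, had 414, 282 and 283 FPKM with hemin, against 142, 129 and 154 FPKM with vehicle, and rose 2.41-fold (edgeR adjusted p = 0.00289). Psrc1, a spindle protein, rose 1.77-fold (edgeR adjusted p = 0.00488). The count of 25 was 16 without hemin replicate 2, 12 without vehicle replicate 1 and 13 without vehicle replicate 2. In those fits 10.4%, 8.68% and 8.46% of all genes were called lower.

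Among 18 genes of condensin and cohesin, 8 were lower and none higher, with a median log2 fold change of -0.36. Esco2, the cohesin acetyltransferase, fell 2.18-fold, Ncaph of condensin I fell 1.86-fold and Ncapg2 of condensin II fell 1.46-fold (edgeR adjusted p = 0.00134, 0.00136 and 0.00384). Of 15 genes of the APC/C and its other activator, 2 were lower and none higher, with a median of -0.15, a count near the 15.7% of all genes called lower. These were Cdc23, 1.43-fold lower and overlapping Kif20a on the other strand, and Cdc26, 1.55-fold lower (edgeR adjusted p = 0.00543 and 0.0484). That count was 4 without hemin replicate 1, where 17.8% of all genes were called lower. It was 1 without any other single library, where 8.46% to 12.8% were.

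Of 23 transcription factors of G2 and mitosis genes, 9 were lower and 1 higher, with a median log2 fold change of -0.53. Mybl2, which encodes B-MYB, had 6.74, 6.91 and 7.34 FPKM with hemin, against 13.1, 13.9 and 13.8 FPKM with vehicle, and fell 1.88-fold (edgeR adjusted p = 0.00117). Foxm1 had 11.1, 17.6 and 20.2 FPKM with hemin, against 39.4, 34.6 and 30.9 FPKM with vehicle, and fell 2.08-fold (edgeR adjusted p = 0.00675). For both factors the groups were separate. The repressors E2f8 and E2f7 fell 2.39-fold and 2.497-fold, and Lin37, a DREAM subunit, rose 1.88-fold (edgeR adjusted p = 0.00101, 0.00143 and 0.00479).

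Of 18 genes that restrain CDK1 or act in the G2 checkpoint, or counter such restraint, 8 were higher and 4 lower, with a median of 0.06, which was -0.09 without hemin replicate 1. The stress-induced Gadd45 genes, whose products bind CDK1 with cyclin B1, rose. Gadd45g had 51.4, 45.7 and 50.7 FPKM with hemin, against 9.39, 7.25 and 9 FPKM with vehicle, and rose 5.99-fold (edgeR adjusted p = 0.000191). Gadd45a rose 7.67-fold and Gadd45b rose 9.23-fold (edgeR adjusted p = 0.0002705 and 0.000714). Wee1, the kinase that puts the inhibitory phosphate on CDK1, fell 1.80-fold (edgeR adjusted p = 0.00326). Mastl and Arpp19, which block the phosphatase opposing CDK1, fell 1.51-fold and 1.475-fold (edgeR adjusted p = 0.00929 and 0.00859). The 4 lower genes were 2 without vehicle replicate 1, where 8.68% of all genes were called lower.

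DNA replication genes were lower in greater number, with 33 of 49 tested called lower, none higher and a median log2 fold change of -0.75. Chaf1a, which loads histones behind the fork, fell 3.15-fold, Fen1, the flap nuclease, 3.11-fold and Mcm3, a subunit of the replicative helicase, 2.23-fold (edgeR adjusted p = 0.000199, 0.000349 and 0.000446). In hemin replicate 1 their median deviation from the other hemin libraries was -0.24, against -0.48 for the 46 mitosis genes. The difference between the lists was not tested.

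Counts of some members may hold reads of other genes, since the sources used here do not say whether strand was kept. In GENCODE vM21, 12 members overlap an exon of a gene on the opposite strand, among them Ccna2 with Exosc9, Cdc20 with Elovl1, Kif20a with Cdc23, Kif4 with Pdzd11, Nusap1 with Oip5 and Prc1 with Rccd1. Pseudogenes named for Ccnb1, Ccnb2 and Kif4 exist, so reads of these could be divided between copies.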

How the data were processed

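RNA-seq libraries of 3 hemin and 3 vehicle samples were grouped by their titles. Per the submitters' processing notes, Bowtie 0.12.2 and RSEM were used, with builds mm8 and mm9 named without a role, so coordinates on the files' build are not given. The annotation release, trimming and strand handling were not given in the sources used here. Per the file headers, the authors deposited expected counts, RSEM's estimates that need not be whole, and FPKM, scaled for length and depth. The tables list features above 0, and a transcript missing from one was set to 0. Tables of unannotated features were not used.

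Transcript values were summed to 18743 genes, 18711 with a symbol in RefSeq's GRCm38.p6 gene table, and the expected counts were rounded. With edgeR 4.0.16 in R 4.3.3, genes were kept by filterByExpr on groups, a filter that 1 group alone can pass, and scaled by TMM factors. The test compared hemin against vehicle by the quasi-likelihood method, two-sided and without covariates, with Benjamini-Hochberg adjustment over 12779 genes and calls at an adjusted p below 0.05. The biological coefficient of variation was 0.208, and a standard error is the log2 fold change divided by the square root of F. The procedure was tested on simulated data in which no library was set apart from its group. The changes planted there were larger than most changes of the members. The simulation therefore does not cover small changes or a pattern like that of hemin replicate 1. Depth is the total expected count of each library, 6339966 to 6523639, and it limits precision for low genes.

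The members, gene lists and tests were chosen with earlier results of these data known. Values per library are given for every member, and up to 3 called genes of smallest p in each direction are named from each other list. Cdkn1a, Sox10, Olig2, Hmox1, Foxm1 and the Birc5 transcripts fall outside that rule and were chosen after their values were seen. Promoter windows and their coordinates are RefSeq's on GRCm38.p6, and exons for overlaps are from GENCODE vM21. Alternatives were DESeq2 1.42.0, RLE size factors, library totals alone, limma 3.58.1 on log2(FPKM + 1), on log2(FPKM + 0.1) and on quantile-normalized values, no filter, a mean of at least 1 FPKM, a replicate block, and leaving out each library.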

Additional observations from a re-analysis of the deposited data

How the results depend on the processing

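Of 690 member fold changes over the alternatives, 607 kept direction and side of the threshold, 47 lost and 4 gained a call, and 32 changed sign, all in 10 members that were not called. Members called lower numbered 23 to 24 under other scalings, filters and tools, and 14 to 24 when 1 library was left out. Members called higher numbered 0 with library totals alone, limma on log2(FPKM + 1), log2(FPKM + 0.1) or quantile-normalized values, no filter, or the replicate block, and 0 to 3 when 1 library was left out. Over all genes, calls lower ranged from 1109 (without vehicle replicate 2; 1136 without vehicle replicate 1) to 2317 when 1 library was left out, and calls higher from 1442 to 2213. With library totals alone 1715 genes were higher and 2582 lower, which put higher calls at 39.9% of calls, against 50.8%. Members whose hemin replicate 1 was lowest numbered 36 by totals alone or by FPKM, and 26 members had separate groups on TMM-scaled CPM too. TTTGAA stood in 14 genes' windows before the start alone, against 28 in whole windows.

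Signs turned as follows; the cause was not tested. Cenpa was at -0.0531, -0.0598 and -0.0631 with limma on log2(FPKM + 1), log2(FPKM + 0.1) and quantile-normalized values. Ndc80 was at -0.0331 with library totals alone and -0.0224, -0.0247 and -0.009 with those limma fits. Cdc20 was at -0.0836 with totals alone, -0.10, -0.11 and -0.14 with those limma fits, and -0.0397 with no filter. Without 1 library each, log2 fold changes ranged from -0.47 to 0.0012 for Cdc25c, -0.18 to 0.0922 for Bub1, -0.37 to 0.0079 for Cdca8, -0.0967 to 0.47 for Cenpa, -0.0654 to 0.26 for Ndc80, -0.23 to 0.18 for Spc24, -0.25 to 0.0732 for Spc25, -0.21 to 0.25 for Cdc20, -0.35 to 0.0827 for Nusap1 and -0.24 to 0.0319 for Prc1.

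The labels do not say whether equal replicate numbers mark paired samples. Same-numbered deviations correlated only weakly, at 0.0636, 0.0905 and 0.150, but each library correlated best with its own number. Pairing was therefore not settled. With the replicate block 20 members were lower and none higher, without Ttk (adjusted p = 0.0562), Nuf2 (0.0856), Kif11 (0.0535), Ckap2l (0.0522) and Bub3 (0.0686), and Cdc20 was at -0.0428.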
